A study of Mus musculus with 28 samples.

Results

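The ribosome-bound mRNA of microglia was compared between mice that had run on a rotarod and mice that had stayed in their home cage. The comparison took every TRAP library of the series, 14 of 28 libraries, 7 from run mice and 7 from home cage mice, and the other 14 libraries are the total lysate of the same motor cortices. All 14 mice were Cx3CR1-Cre/TRAPfl. Run mice spent 1 h on the rotarod, a rotating rod on which a mouse has to keep walking, and the home cage group was the untreated baseline. Each condition held 4 females and 3 males by label, 4 mice of cohort 1 and 3 of cohort 2. The age of the mice is not given in the labels used here.

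In TRAP (translating ribosome affinity purification) a tagged ribosomal protein is switched on by Cre in chosen cells, and pulling down the tag brings along the mRNAs that those ribosomes carry. Cx3cr1, whose promoter drives the Cre here, is expressed in brain mainly by microglia, the resident macrophages, and also by macrophages at the borders of the brain. Stress and exercise raise circulating glucocorticoid hormone, which enters cells, binds the glucocorticoid receptor and induces genes such as Tsc22d3, Fkbp5, Per1 and Ddit4. Neuronal activity and growth signals induce another set, the immediate early genes, through kinases that act on transcription factors already in the cell. A pulldown from tissue also carries mRNA of other cells, so the ratio of TRAP to lysate in home cage mice is given beside each result as a guide to where an mRNA comes from.

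The TRAP libraries held about 104406000 to 157670000 counts in home cage mice and 104599000 to 241382000 in run mice. Principal component 1 (39.3% of the variance) separated the cohorts, so cohort was a term of the fit. In home cage mice 24 of 25 homeostatic microglia markers were enriched in TRAP, with a median log2 TRAP over lysate of 6.52, and the exception was Mef2c (0.20), which neurons also express. Purity, the mean log2 level of microglia markers minus that of pan-neuronal markers, came to 3.75 ± 0.72 for home cage TRAP and 3.56 ± 0.78 for run TRAP (SD, n = 7). In 2 of the 14 TRAP libraries, the run libraries Male1 and Female2 of cohort 2, Y-linked expression went against the sex label. The threshold was 5 CPM (counts scaled to library size), and over both fractions 4 of 28 libraries went against the label. Male1 held 0 CPM and Female2 15.4 CPM. Other TRAP libraries held 67.2 to 134 CPM if labelled male and 0 to 1.12 CPM if labelled female, so Female2 lay between. Whether the labels of these mice were swapped was not tested. The library Female2 was also the largest, and 13.0% of its counts were Cst3 (4.51% to 8.34% in the other 13).

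With edgeR's quasi-likelihood test, 15203 mRNAs were tested at an adjusted p under 0.05. After running, 7 of them rose in TRAP and none fell (0.046% higher, 0% lower). Besides Tsc22d3, Ddit4, Rgs1, Tagap and Apold1, they were Nfkbia, which encodes the inhibitor that holds NF-kB in the cytoplasm, and 8430408G22Rik, listed by RefSeq as Depp1, an autophagy regulator. At an unadjusted p under 0.05 there were 292 genes with a positive and 248 with a negative fold. Together these are less than a share of 0.05 of the genes tested, the share expected with no effect. Over all genes the median log2 fold was 0.0010 and the median SE 0.19. From the same counts DESeq2 gave 33 higher and 6 lower calls, limma-voom 8 higher and 0 lower. The DESeq2 calls included extreme log2 folds, from -4.55 (Rassf9) to 6.55 (Eid3). Both genes are named after their values were seen, and neither was called by edgeR or limma-voom. The edgeR count fell to 3 when the home cage library Female1 of cohort 1 was left out. It fell to 4 without Male2 of the same group and cohort, and to 4 without either run library labelled Male1.

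Tsc22d3 encodes GILZ, a leucine zipper protein through which glucocorticoids restrain inflammatory signalling. Home cage TRAP libraries held 148, 211 and 333 CPM (counts scaled to library size with TMM factors, given as lowest, median and highest) and run libraries 334, 518.5 and 931. The groups did not overlap, though the highest home cage library, Female2 of cohort 1, lay next to the lowest run library, Male1 of cohort 2. The log2 fold was 1.42 ± 0.18 (SE, n = 7 against 7, adjusted p = 0.00307). Without running, its TRAP level was close to that of the lysate (log2 ratio 0.23 ± 0.19, adjusted p = 0.296), and enrichment was not called. The ratio was -0.05 in cohort 1 (adjusted p = 0.901) and 0.62 in cohort 2 (adjusted p = 0.00683). The call of the run fold held in all 14 fits that each left out 1 library. What part mRNA of other cells has in the level and fold of Tsc22d3 was not tested. In bulk samples of this kind a change in the number of contributing cells and a change in mRNA per cell cannot be told apart.

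Ddit4 encodes REDD1, which restrains the growth kinase complex mTORC1 under stress. Home cage libraries held 4.40, 12.6 and 30.7 CPM and run libraries 33.5, 45.2 and 66.0 CPM. Every run library was above every home cage library, and 1 home cage library, Female2 of cohort 1, stood apart at 30.7 CPM from the next at 14.3. The log2 fold was 1.83 ± 0.32 (adjusted p = 0.0466), the widest error of the 7 genes. Its call was among the least stable, holding in 2 of those 14 fits, and its fold was also 1.83 without the 2 run mice with a mismatched sex marker (adjusted p = 0.1997). In home cage mice Ddit4 was enriched in TRAP by 1.76 ± 0.35 on the log2 scale.

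Nfkbia lay at different levels in the cohorts. In home cage mice it lay at 48.4 to 64.4 CPM in cohort 1 and at 143 to 195 in cohort 2. Run libraries held 78.1 to 125 CPM in cohort 1 and 211 to 614 in cohort 2, in each case above all home cage libraries of the same cohort. The highest value, 614 CPM, was in the run library Female2 of cohort 2, whose Cst3 share, size and sex marker were described above. The log2 fold was 1.05 ± 0.19 (adjusted p = 0.0485), and 0.80 ± 0.15 (adjusted p = 0.124) without that mouse and Male1 of cohort 2. The call held in 3 of the 14 fits with 1 library left out. Nfkbia is transcribed in response to NF-kB and to glucocorticoids, and in home cage mice it was 2.28 ± 0.15 higher in TRAP than in lysate on the log2 scale.

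8430408G22Rik (Depp1) is known as a target of FOXO factors that is also induced by progesterone. It lay at 3.34 to 5.82 CPM in home cage and 7.27 to 9.66 in run libraries of cohort 1, and at 9.62 to 12.0 and 21.4 to 32.0 CPM in cohort 2. The cohorts differed in level, with folds of 1.07 ± 0.25 (cohort 1) and 1.20 ± 0.24 (cohort 2). Over both its log2 fold was 1.13 ± 0.17 (adjusted p = 0.0108), the call held in all 14 fits with 1 library left out, and it was enriched in home cage TRAP by 2.28 ± 0.30.

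Rgs1 and Tagap act inside immune cells, Rgs1 by switching off G protein signals from chemokine receptors and Tagap as a GTPase-activating protein that was first known from activated T cells. Rgs1 held 1.74, 4.02 and 9.18 CPM in home cage and 4.77, 18.0 and 28.7 CPM in run libraries. Its groups overlapped across the cohorts and not within them, since cohort 2 lay lower in both conditions (medians 3.64 and 8.46 CPM, against 6.74 and 21.8 in cohort 1). The log2 fold was 1.61 ± 0.24 (adjusted p = 0.0123). Tagap held 18.7, 23.4 and 39.9 CPM in home cage and 44.5, 49.6 and 64.6 CPM in run libraries, with no overlap and a log2 fold of 1.00 ± 0.16 (adjusted p = 0.0175). These mRNAs were the most microglia-enriched of the 7, by 4.49 ± 0.63 and 5.57 ± 0.25 over lysate in home cage mice. The annotation places 716 exon bases of Tagap opposite E430024P14Rik, and reads of that antisense gene may be part of its counts. Without the 2 run mice the adjusted p was 0.0168 for Rgs1 and 0.124 for Tagap, and with 1 library left out the calls held in 13 and 10 of 14 fits.

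Apold1, an early response gene best known from endothelial cells, had the smallest p of all genes tested. Home cage libraries held 5.13, 7.04 and 10.6 CPM and run libraries 14.8, 16.9 and 19.6 CPM, and every run library was above every home cage library. The log2 fold was 1.33 ± 0.16 (adjusted p = 0.00307) and it was called in all 14 fits with 1 library left out. Its log2 TRAP over lysate without running was 0.64 ± 0.19, below the limit of 1 used here for enriched, with 0.32 in cohort 1 (adjusted p = 0.266) and 1.08 in cohort 2 (adjusted p = 0.00591), where it passed that limit. Of the 12 markers of brain endothelium 9 were above the limit (median 1.45). The summed level of those 12 markers was 246 to 864 CPM in home cage and 293 to 722 CPM in run TRAP libraries, none of the 12 was at 0, and Cldn5, the tight junction protein that defines brain endothelium, ran from 9.86 to 191 CPM and from 13.1 to 143 CPM. What part endothelial mRNA has in the level of Apold1 was not tested.

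**Figure D1:**
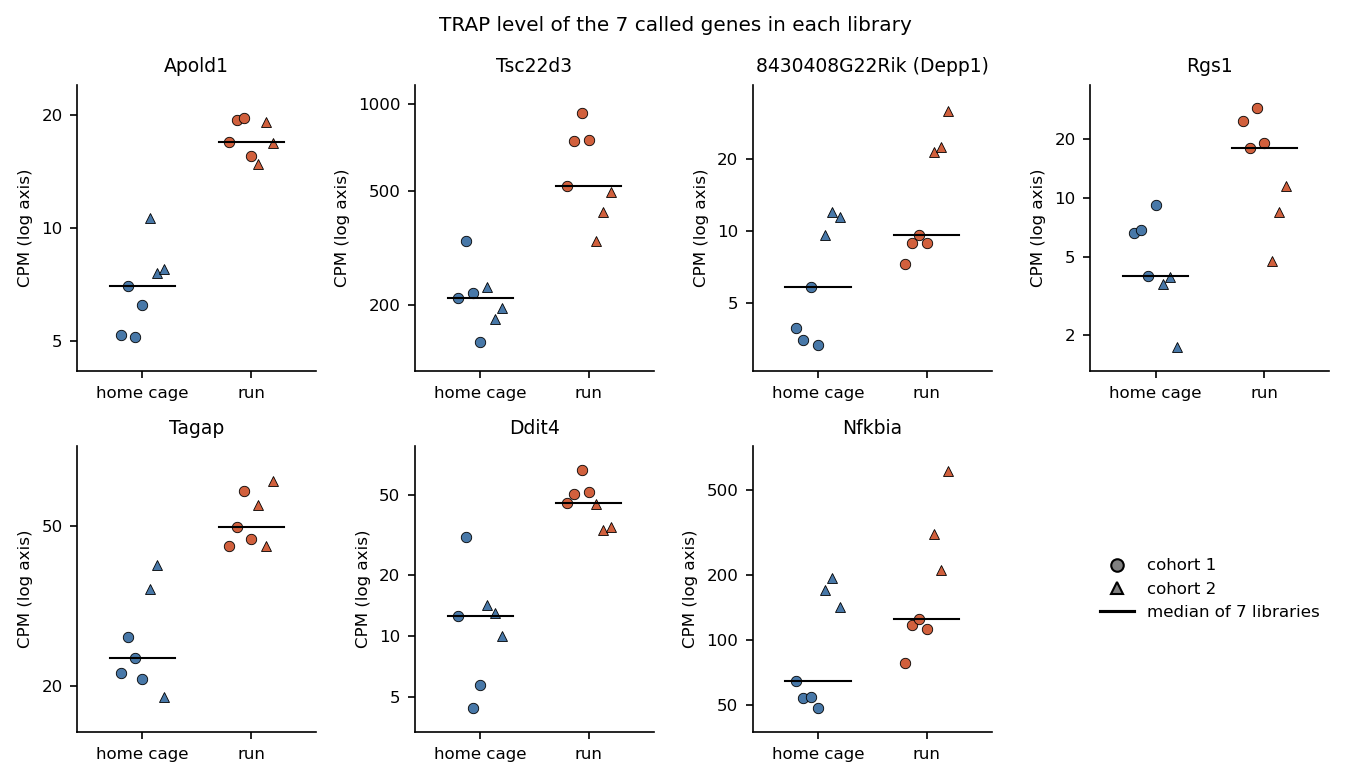
Level of the 7 called genes in each of the 14 TRAP libraries, in CPM on a log axis. Circles are cohort 1, triangles cohort 2 and bars the median of 7 libraries. Apold1, Tsc22d3, Tagap and Ddit4 do not overlap between conditions, while 8430408G22Rik, Rgs1 and Nfkbia separate within each cohort only.

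The 7 genes lie on GRCm38 at chr6:134981718-134986836 (Apold1, plus strand), chrX:140539528-140600659 (Tsc22d3, minus), chr6:116650609-116652794 (8430408G22Rik, plus), chr1:144242296-144249242 (Rgs1, minus), chr17:7926000-7934897 (Tagap, plus), chr10:59949669-59951834 (Ddit4, minus) and chr12:55489410-55492647 (Nfkbia, minus). All are protein-coding. Apart from Tagap, none shares exon bases with another annotated gene.

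Promoters were read from RefSeq for GRCm38.p6, the 250 bases before each annotated start, for 19 of the 24 genes of smallest p with a positive fold and a name. The table used here had no entry for Rgs1, Jade2, Nuak2, Rab7b and Ehd1. Of the called genes, 3 had a match to a motif searched on both strands, and 1 match of each is shown as an example of the patterns searched. Capitals mark the match: a kappa B site in Nfkbia (chr12:55492648-55492897, minus strand), the short site TGACG of cAMP response elements, here on the reverse strand, in Apold1 (chr6:134981751-134982000, plus), and the short site AGAACA of glucocorticoid response elements, here on the reverse strand, at the most upstream of the 3 starts of Tsc22d3 (chrX:140600523-140600772, minus).
Nfkbia: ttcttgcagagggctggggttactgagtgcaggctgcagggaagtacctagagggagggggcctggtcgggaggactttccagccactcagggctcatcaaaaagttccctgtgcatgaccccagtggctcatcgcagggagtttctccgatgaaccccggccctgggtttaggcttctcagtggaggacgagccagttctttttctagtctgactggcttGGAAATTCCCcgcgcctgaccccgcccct
Apold1: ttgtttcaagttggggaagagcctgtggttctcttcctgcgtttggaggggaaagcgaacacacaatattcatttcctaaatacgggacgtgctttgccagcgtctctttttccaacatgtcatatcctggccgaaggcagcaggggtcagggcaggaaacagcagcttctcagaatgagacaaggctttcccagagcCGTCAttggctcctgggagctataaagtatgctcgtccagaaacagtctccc
Tsc22d3: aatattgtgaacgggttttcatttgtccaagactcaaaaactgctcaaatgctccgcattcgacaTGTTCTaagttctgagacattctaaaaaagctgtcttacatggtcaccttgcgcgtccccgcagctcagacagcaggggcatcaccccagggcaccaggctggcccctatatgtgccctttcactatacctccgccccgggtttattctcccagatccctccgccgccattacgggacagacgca
The kappa B site of Nfkbia ends 20 bases before the start, the short site of Apold1 begins 52 bases before it and that of Tsc22d3 185 bases before it. Another start of Tsc22d3 (chrX:140548522-140548821, minus, the window with 50 bases after the start) also held the short cAMP site TGACG, so the pattern shown for Apold1 is not particular to it. No match was found in the windows of Ddit4, Tagap and 8430408G22Rik, which says only that these letters are not in those bases.

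Single motifs are common, and the matches are a description. At least 1 promoter of a gene held a kappa B site in 3 of the 19 genes and in 14.0% of 11490 tested genes with an entry. The short glucocorticoid site was present in 1 of 19 and 13.1%, and the full element, which joins that site to its reverse complement across 3 free bases, in 0 of 19 and 0.01%. The short cAMP site TGACG was present in 9 of 19 genes and 29.1% of all, and those 9 were Apold1, Tsc22d3, Cebpb, Klf4, Cyr61, Mlxip, Per1, Jdp2 and Rcan1. The full cAMP response element TGACGTCA, which contains the short site on both strands, was in Rcan1 alone (1 of 19, 3.00% of all). An AP-1 site, TGANTCA, was in 1 of 19 and 5.67%, and a serum response element in 0 of 19 and 1.45%. Per promoter rather than per gene, the short site TGACG was in 17.8% and a kappa B site in 9.55% of 32851 windows of this length.

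Behind the called genes came 18 others, 1 of them an unnamed model, among the 25 of smallest p with a positive fold, at adjusted p of 0.0670 to 0.245 and hence not called. They are given here by the known role of each, a grouping made after their values were seen and not tested. Transcription factors were Cebpb (1.05 ± 0.20 on the log2 scale, SE), Klf4 (1.01 ± 0.19), Mycl (0.74 ± 0.16), Mlxip (0.50 ± 0.11), Jdp2 (0.67 ± 0.16) and the clock gene Per1 (0.82 ± 0.19). Regulators of signalling were the AMPK-related kinase Nuak2 (0.91 ± 0.17), the calcineurin inhibitor Rcan1 (0.62 ± 0.15), the receptor chaperone Fkbp5 (1.02 ± 0.19) and Gadd45b (0.95 ± 0.22), an activator of stress kinases. Genes of membrane traffic were Rab7b (0.92 ± 0.18) and Ehd1 (0.63 ± 0.14), and Pnpla2, the triglyceride lipase, was at 0.57 ± 0.13. The matricellular gene Cyr61 was at 1.46 ± 0.28, the chromatin protein gene Jade2 at 0.60 ± 0.11, Abhd15 at 0.69 ± 0.14 and Fam43a at 0.72 ± 0.16.

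Fkbp5 held 40.2, 84.4 and 103 CPM in home cage and 94.0, 139 and 263 CPM in run libraries, which overlap. Klf4 held 5.78, 8.28 and 10.3 CPM against 11.2, 14.1 and 26.8 CPM, with every run library above every home cage library. Cebpb held 53.6, 86.2 and 153 CPM against 98.3, 138 and 562 CPM. Like Nfkbia it was higher in cohort 2 in home cage mice (137 to 153 CPM, against 53.6 to 86.2 in cohort 1), and its highest value, 562 CPM, was in the run library Female2 of cohort 2. Without that mouse and Male1 of cohort 2 the fold of Cebpb was 0.76 ± 0.14 (adjusted p = 0.134). Exons of Cebpb and Abhd15 share 312 and 883 bases with Tmem189 and Gm10392 on the opposite strand.

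The libraries were also compared by rank alone, without a model. In 27 of 15203 genes every run library lay above all home cage libraries of its cohort (0.178%), and in 10 every run library lay below (0.0658%). All 7 called genes were among the 27, as were Jade2, Cebpb, Klf4, Nuak2, Rab7b, Abhd15, Fam43a, Mlxip, Gadd45b and Per1. These had been picked by p in the same libraries, so their separation is no second line of evidence. How many genes chance would separate in either direction was not tested. Of the 27, 13 were enriched in home cage TRAP, 6 were lower there than in lysate, 7 lay between and 1 was not tested. Regardless of cohort, 7 genes lay above all home cage libraries, Apold1, Tsc22d3, Tagap, Ddit4, Klf4 and, named after their values were seen, the low-abundance Ybx2 and CK137956, and none lay below all of them.

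No mRNA was called lower by edgeR. The 15 genes of smallest p with a negative fold had adjusted p from 0.241 to 0.999, and 5 of them, Gpr84, Degs2, Tnfaip2, A4galt and Hes5, were among the 6 that DESeq2 called lower. Gpr84, a receptor for medium-chain fatty acids that activated microglia make, held 24.2, 42.8 and 91.9 CPM in home cage and 9.07, 22.5 and 70.8 CPM in run libraries (log2 fold -0.89 ± 0.21). In cohort 1 its 4 run libraries, 9.07 to 22.5 CPM, were all below the 4 home cage libraries, 24.2 to 42.8 CPM. In cohort 2 the run libraries, 52.7 to 70.8 CPM, overlapped with the home cage libraries, 68.4 to 91.9 CPM. Degs2, a desaturase of sphingolipids, was at -0.90 ± 0.21, the galactosyltransferase A4galt at -1.38 ± 0.33 and the Notch target Hes5 at -0.83 ± 0.20. Of the other genes on that side, Tnfaip2 was at -0.79 ± 0.18, the homeobox factor Hhex at -0.61 ± 0.16, the cytokine co-receptor Il6st, gp130, at -0.61 ± 0.18 and the microRNA processing factor Dgcr8 at -0.60 ± 0.16. Srl (-1.01 ± 0.27), Slc22a8, an organic anion transporter of the blood-brain barrier (-0.56 ± 0.17), Dhx32 (-0.47 ± 0.13), Nubpl (-0.43 ± 0.13), Ablim1 (-0.41 ± 0.12), Phf10 (-0.40 ± 0.12) and Gyg, which primes glycogen (-0.36 ± 0.11), completed the 15.

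The TRAP over lysate ratio in home cage mice was above the limit for enrichment for most of these mRNAs. Of 15867 genes tested 3341 were enriched (21.1%, adjusted p under 0.05 and log2 ratio over 1) and 5418 were lower in TRAP (34.1%). Of the 25 genes of smallest p with a positive fold, 15 were enriched, 6 lay between and 4 were lower, and of the 15 with a negative fold 9 were enriched, 5 between and 1 lower. The ratio and the run fold share the home cage TRAP libraries, so their values are set side by side and not related to each other. Highest were Abhd15 (5.80), Tagap (5.57), Rgs1 (4.49), Nuak2 (4.33), Cebpb (3.34) and Klf4 (3.17), and on the negative side Gpr84 (6.55) and Hhex (6.40). Among the 24 named genes of positive fold, Gadd45b (-0.74), Jdp2 (-0.58), Cyr61 (-0.52), Fam43a (-0.41) and Ehd1 (-0.20) had a ratio below 0, and Cyr61 and Ehd1 did not pass the test of it (adjusted p = 0.0950 and 0.256). On the negative side Hes5 (-0.95) and Dhx32 (-0.10, adjusted p = 0.496) were below 0.

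In the lysate of the same mice 22 of the 25 genes also had a positive fold, a count given without the share over all genes. Lysate folds of the called genes were 0.45 ± 0.12 for Apold1, 0.59 ± 0.14 for Tsc22d3, 0.90 ± 0.29 for 8430408G22Rik, 1.71 ± 0.70 for Rgs1, 0.72 ± 0.45 for Tagap, 0.71 ± 0.28 for Ddit4 and 0.58 ± 0.11 for Nfkbia. None passed in lysate, with adjusted p of 0.0746 (Nfkbia) to 0.714 (Tagap). Lysate levels were low for Rgs1, Tagap and Nuak2 (home cage means of 0.28, 0.68 and 0.51 CPM), and their lysate folds have wide errors. Of 16091 genes tested in lysate 5 rose (0.0311%) and 0 fell (0%). They were Gadd45b (0.88 ± 0.13, adjusted p = 0.0256), which is among the 25, and Ppp1r3g (0.75 ± 0.11), Arl4d (0.74 ± 0.12), Gem (1.48 ± 0.24) and Cdkn1a (0.71 ± 0.12). Their TRAP folds were positive as well, from 0.40 (Cdkn1a) to 0.99 (Gem), and not called. Gem, a small GTPase, is named here after its value was seen. The difference between the fractions was called for 0 of 16716 genes (0%) by edgeR, 38 by DESeq2 and 0 by limma-voom. By edgeR 775 had an unadjusted p under 0.05, less than a share of 0.05 of those tested. The DESeq2 calls of smallest p had log2 differences of 20.4 to 28.3 in size, in both directions. Such values are too large to be read as changes in level. Apold1 rose by 0.87 ± 0.20 more in TRAP than in lysate (unadjusted p = 0.000154, adjusted p = 0.415), Tsc22d3 by 0.82 ± 0.24 (adjusted p = 0.743) and Ddit4 by 1.11 ± 0.46 (adjusted p = 1.00), so for none of them is the fold shown to differ between fractions. Nuak2 (0.02 ± 0.67), Rab7b (-0.02 ± 0.30), Mycl (-0.11 ± 0.15) and Fam43a (-0.21 ± 0.16) had lysate folds near or below 0.

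**Figure D2:**
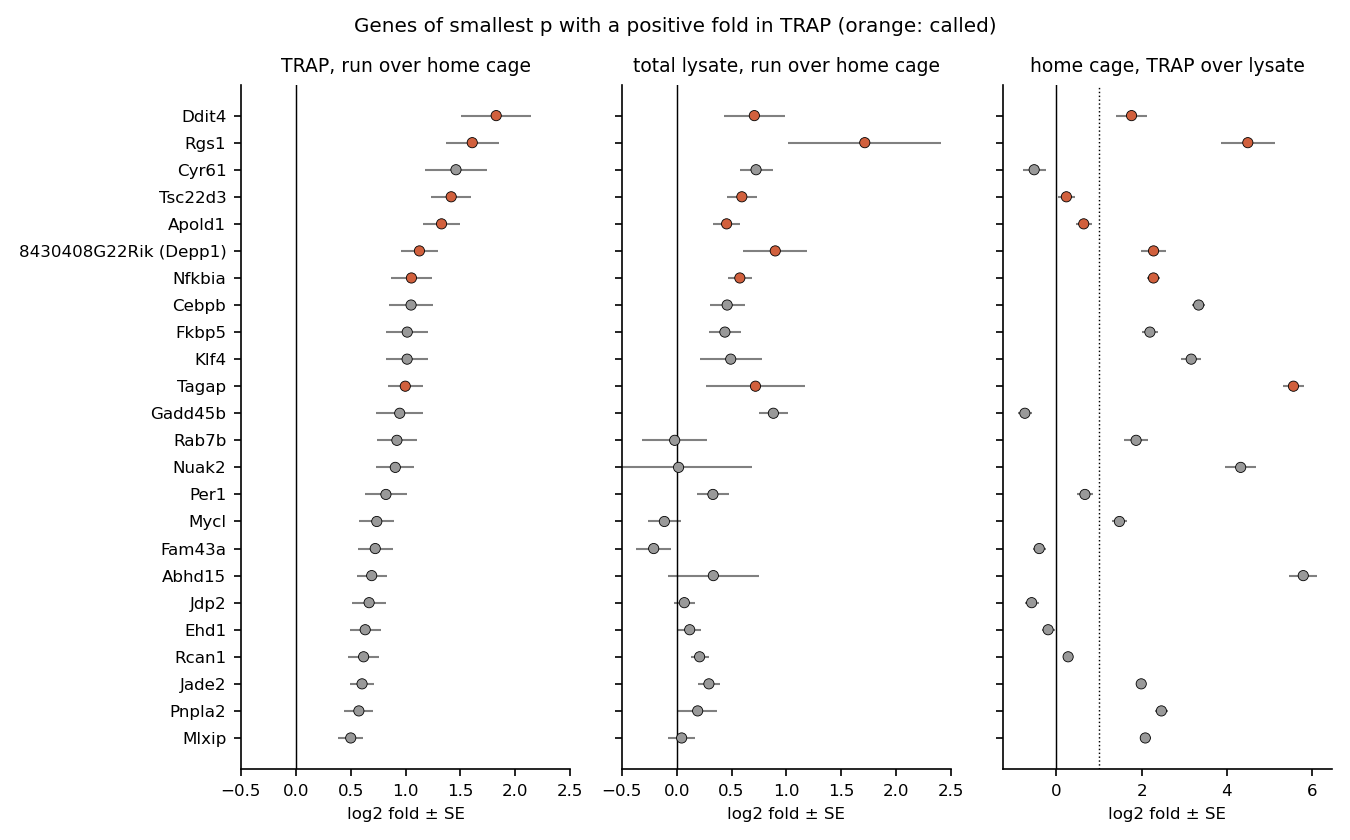
Log2 folds ± SE of 24 named genes of smallest p with a positive fold, called genes in orange. Panels give run over home cage in TRAP, the same in total lysate, and TRAP over lysate in home cage mice with 0 as a solid and 1 as a dotted line. Abhd15, Tagap and Rgs1 are highest in the right panel, and Gadd45b, Jdp2, Cyr61, Fam43a and Ehd1 lie below 0.

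The cohorts share no mice, so genes chosen in one can be read in the other. Across 12310 genes with a mean log2 CPM of at least 1 the log2 folds of the cohorts had the same sign in 44.7%, with r = -0.09 and rho = -0.10 over genes, which share libraries and are not independent. Of the 50 genes of smallest p in cohort 1, 33 kept their sign in cohort 2 (66.0%, exact 95% interval 51.2% to 78.8% for counting error only), and 17 had an unadjusted p under 0.05 there with that sign, against 2.06% of all genes. Those 17 held all 7 called genes, which had been chosen over both cohorts, and Cebpb, Abhd15, Klf4, Cyr61, Gpr84, Rab7b, Nuak2 and Mycl. In the other direction, 23 of the 50 genes of smallest p in cohort 2 kept their sign in cohort 1 (46.0%), of which 13 had an unadjusted p under 0.05, against 1.98% of all genes. Among these 13 were the kinase gene Sik1, the glycogen-targeting subunit gene Ppp1r3g, the small GTPase gene Arl4d and Hhex. The share depended on how many genes were read: with 20 genes it was 90.0% from cohort 1 to cohort 2 and 45.0% from cohort 2 to cohort 1, and with 100 genes 60.0% and 49.0%.

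Without the 2 run mice with a mismatched sex marker, which leaves 1 run mouse in cohort 2, 45 of 50 genes chosen in cohort 1 kept their sign in cohort 2 (90.0%) and 30 of 50 chosen in cohort 2 kept it in cohort 1 (60.0%). The lone run library of cohort 2 is then assumed to vary like the others. The share of all genes with the same sign was not counted without these mice, so 90.0% and 60.0% have no baseline here. Of the 7 called genes 4 were called without these mice, Apold1, Tsc22d3, Rgs1 and 8430408G22Rik, and the only other call was Trp53inp1, a p53 target named after its value was seen (0.86 ± 0.25 with all mice, 1.20 ± 0.17 without them, adjusted p = 0.0135). Whether the run fold differed between the cohorts was tested for all genes, and edgeR called 0 of 15203 (0%). At an unadjusted p under 0.05 there were 651, less than a share of 0.05 of those tested. DESeq2 called 1, at an extreme log2 difference of -8.65, and limma-voom 0. For the called genes the difference of cohort 2 from cohort 1 ran from -0.65 (Tsc22d3) to 0.19 (Nfkbia) on the log2 scale. The smallest unadjusted p of these was 0.0497, for Apold1 (1.59 ± 0.20 in cohort 1 and 0.96 ± 0.25 in cohort 2).

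**Figure D3:**
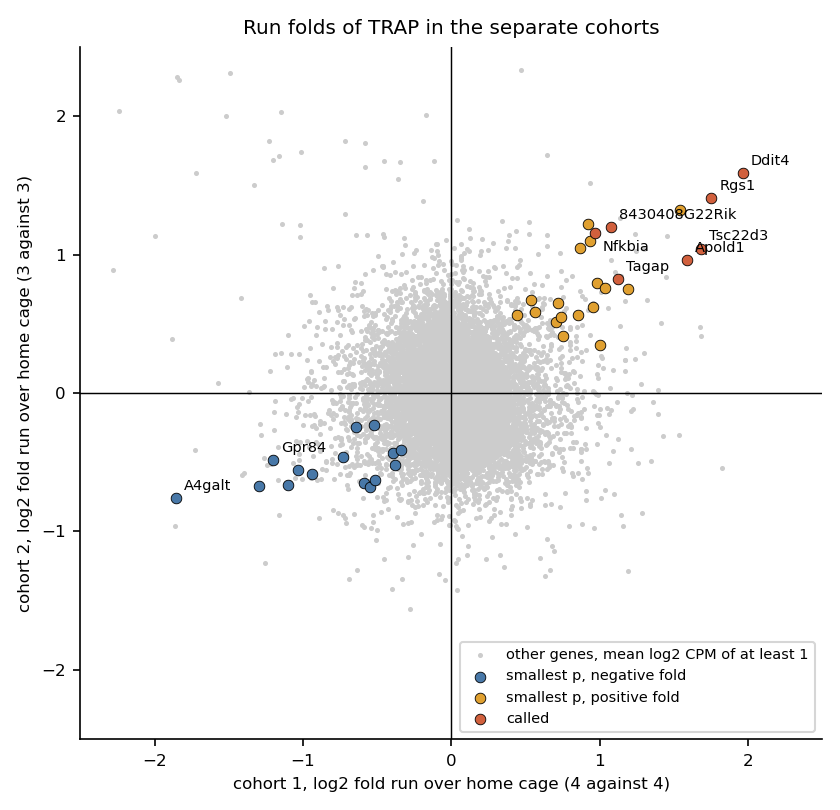
Log2 fold of run over home cage in TRAP in cohort 1 (x axis, 4 mice against 4) and cohort 2 (y axis, 3 against 3), for genes with a mean log2 CPM of at least 1. The 11 genes beyond 2.5 on either axis are not shown. Genes of smallest p, which were chosen over both cohorts, lie along the diagonal, while the cloud of other genes does not.

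Glucocorticoid-responsive genes had the highest median fold of 43 lists. Of its 23 members, all tested, 3 rose (Tsc22d3, Ddit4 and Nfkbia), none fell, and 22 had a positive fold, against 50.2% of all genes tested. Their median log2 fold was 0.40, with 0.51 in cohort 1, 0.53 in cohort 2 and 0.38 without the 2 run mice. In lysate the median was 0.41. The list was drawn up with results of these data known, so its count is a description. By home cage ratio, 6 members were enriched (Cdkn1a, Cebpd, Ddit4, Fkbp5, Nfkbia and Sult1a1), 13 lay between and 4 were lower in TRAP. The receptors themselves were near 0, with Nr3c1, the glucocorticoid receptor, at -0.09 ± 0.18 and Nr3c2, the mineralocorticoid receptor, at 0.00 ± 0.18. Both receptors and the enriched members Cdkn1a, Cebpd and Sult1a1 are named here after their values were seen.

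Immediate early genes came second. Of 27 tested members 1 rose (Apold1), 20 had a positive fold and the median was 0.33, with 0.33 in cohort 1 and 0.26 in cohort 2. Klf4 and Cyr61 were next by p. Fos held 4.77, 9.96 and 13.0 CPM in home cage and 8.03, 19.2 and 24.0 CPM in run libraries (0.82 ± 0.23, adjusted p = 0.661). All 4 run libraries of cohort 1 were above its home cage libraries, and in cohort 2 the groups overlapped. Arc, which acts at synapses, held 14.6, 48.9 and 73.8 CPM against 50.8, 83.6 and 156 CPM (0.74 ± 0.24, adjusted p = 0.999), with the highest value again in the run library Female2 of cohort 2. Egr1 was at 0.25 ± 0.17 and Npas4, low at a home cage median of 0.38 CPM, at 0.70 ± 0.69. Without running, 10 of the 27 members were lower in TRAP than in lysate, among them Fos and Arc, and 7 were enriched. The summed level of 12 pan-neuronal markers was 1804 to 5631 CPM in home cage and 1737 to 7748 CPM in run TRAP libraries, and none of them was at 0. Neuronal marker lists had positive medians and no call: pan-neuronal 0.17 (10 of 12 positive), excitatory 0.12 (8 of 12), inhibitory 0.23 (9 of 10) and striatal 0.17 (10 of 10, at -0.11 in cohort 1 and 0.64 in cohort 2). Slc17a7, which loads glutamate into the vesicles of excitatory neurons, was at -0.01 ± 0.13. The part of neuronal mRNA in the folds of Fos and Arc was not tested.

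**Figure D4:**
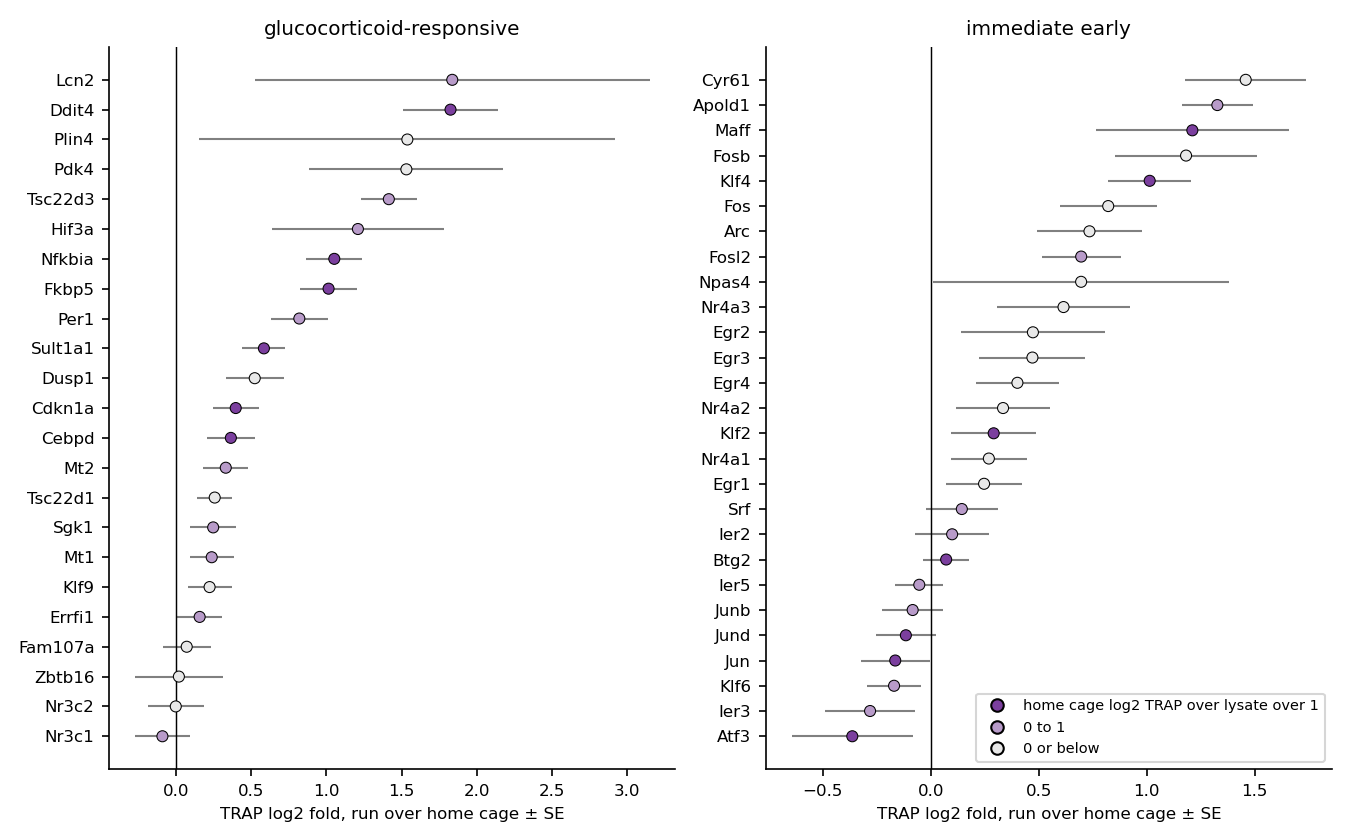
Log2 fold of run over home cage in TRAP ± SE for each tested glucocorticoid-responsive (left, 23) and immediate early gene (right, 27). Dark symbols have a home cage log2 TRAP over lysate over 1, pale purple 0 to 1 and light grey 0 or below. Lcn2, Plin4 and Npas4 have wide errors at low levels.

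Among genes of GTPases and their regulators, Tagap rose and 14 of 22 members had a positive fold (median 0.13), with Rab7b and Arl4d (0.86 ± 0.20) next by p. Of 18 genes of the RGS family Rgs1 rose, 10 had a positive fold and the median was 0.03, so the family as a whole was near the median of all genes. Late activity-regulated genes had 0 of 20 called, 16 positive and a median of 0.13, with Gadd45b, Sik1 (1.00 ± 0.24) and Crem (0.46 ± 0.16) of smallest p. The 14 kinases of the AMPK family and its regulators had 0 called, 8 positive and a median of 0.03, with Nuak2 and Sik1 apart from the rest. In the circadian clock list 0 of 18 were called, 13 were positive and the median was 0.12, led by Per1 and, with a negative fold, Bhlhe41 (-0.45 ± 0.19).

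Nfkbia, which the glucocorticoid list also holds, was the one member called in the inflammatory lists. Since 0.046% of all genes were called, a list without a call is the usual case. Of 15 tested members of the NF-kB pathway Nfkbia rose, 6 had a positive fold and the median was -0.10, with Tnfaip3, a feedback inhibitor like Nfkbia, at -0.40 ± 0.20 and Nfkb2 at -0.30 ± 0.17. Of 17 tested cytokines and chemokines 0 were called, 5 had a positive fold and the median was -0.18, in cohort 1 -0.33 and in cohort 2 -0.03. Smallest by p were Tgfb1 (-0.73 ± 0.33), Il1a (-0.50 ± 0.25) and Osm (-0.52 ± 0.32). The interferon response had 0 of 20 called and a median of -0.01, with opposite signs in cohort 1 (-0.36) and cohort 2 (0.52). Disease-associated microglia genes had 0 of 20 called, 9 positive and a median of -0.04, and genes of complement and phagocytosis 0 of 22, 10 positive and -0.05.

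No microglial identity gene was called, but with 0.046% of all genes called a list of this size would seldom hold one. Of 25 homeostatic markers 12 had a positive fold and the median was -0.08, in a range from -0.44 (Irf8) to 0.11. Their summed level was 47098 to 92753 CPM in home cage and 46692 to 107823 CPM in run libraries. Cx3cr1 held 869, 1432 and 1920 CPM in home cage and 821, 1210 and 1882 CPM in run libraries, a log2 fold of -0.09 with a 95% interval of -0.37 to 0.18. P2ry12, the ADP receptor of surveying microglia, was at 0.02 (-0.45 to 0.49) and Tmem119 at 0.07 (-0.22 to 0.35). Irf8 (-0.44 ± 0.16), a transcription factor of macrophages, and P2ry13 (-0.39 ± 0.17), another ADP receptor, had the smallest p, both with an adjusted p of 0.999. Border-associated macrophages had 0 of 11 called and a median of 0.01.

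Genes of protein synthesis and metabolism showed no call outside Ddit4, which the mTORC1 and hypoxia lists also hold. At a share of 0.046% called over all genes, most lists would hold none. All 78 tested cytosolic ribosomal protein genes had a positive fold and 0 were called, with a median of 0.19, made up of 0.02 in cohort 1 and 0.43 in cohort 2, and 0.02 without the 2 run mice. Rpl10a was at 0.29 ± 0.15. Nuclear-encoded oxidative phosphorylation had 29 of 37 positive and a median of 0.07, which was -0.04 without those mice. Glycolysis had 11 of 25 positive and a median of -0.01, and glycogen genes 6 of 16 and -0.06, with the glycogen-targeting subunits Ppp1r3g (0.87 ± 0.21) and Ppp1r3c (0.52 ± 0.19) of smallest p. Translation factors were at a median of -0.01 (12 of 27 positive), heat shock genes at 0.05 (10 of 15), the unfolded protein response at -0.04 (8 of 20) and lysosomal genes at -0.08 (7 of 26). Medians of the other lists without a call were -0.05 for lipid and cholesterol metabolism (9 of 21 positive), 0.03 for amino acid transport (10 of 17), 0.01 for purinergic signalling (11 of 19), 0.04 for growth factors (12 of 20), 0.02 for dual specificity phosphatases (9 of 16), 0.12 for transmitter receptors (10 of 17) and -0.02 for antigen presentation (7 of 16).

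Marker genes of other cells were described in the same way, again beside a share of 0.046% called over all genes. Brain endothelium had 0 of 12 called, 1 positive and a median of -0.29 (-0.20 for cohort 1, -0.36 for cohort 2), with Flt1, a receptor for VEGF, at -0.63 ± 0.23 and Cldn5 at -0.70 ± 0.28. Mural cells, the pericytes and smooth muscle of vessels, had 0 of 11 called, 2 positive and a median of -0.34. Oligodendrocytes had a median of 0.16 (10 of 12 positive), their precursors 0.02 (6 of 10), astrocytes 0.06 (8 of 12) and choroid plexus and ependyma 0.15 (5 of 8), with 0 called in each. Of 16 markers of blood leukocytes 5 reached the level for testing, with a summed level of all measured members of 17.0 to 32.0 CPM in home cage and 22.1 to 37.1 CPM in run libraries, and 4 of 7 red cell markers were at 0 in all 14 TRAP libraries.

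**Figure D5:**
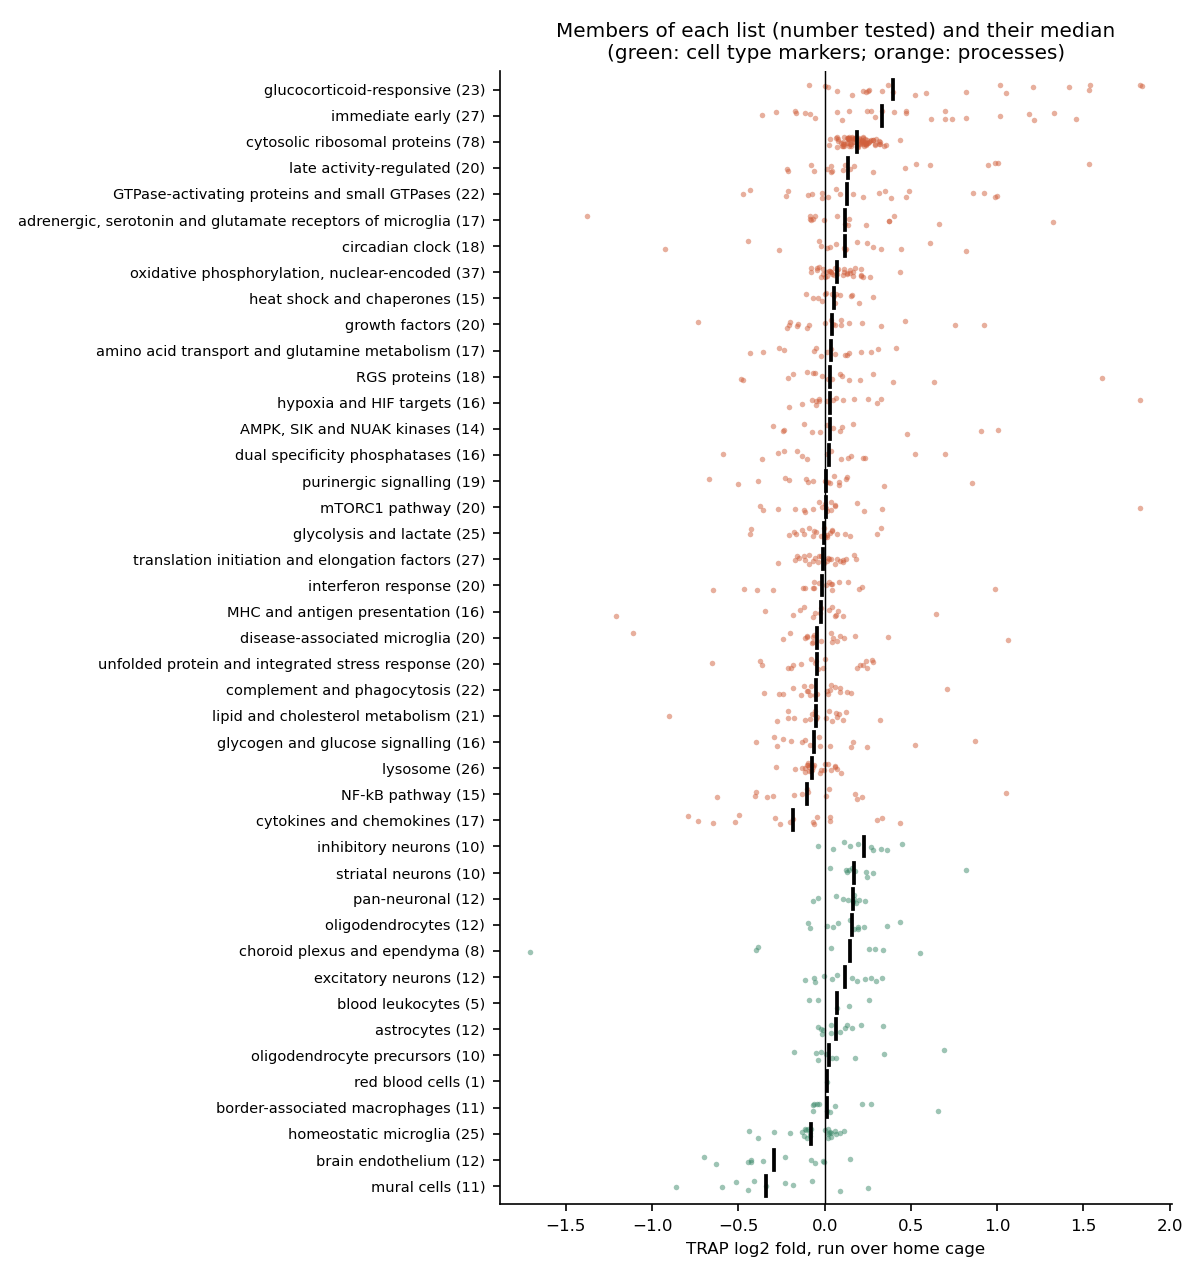
Log2 fold of run over home cage in TRAP for the tested members of each list, with the median as a black bar and the number tested in brackets. Process lists are in orange and cell type markers in green. Glucocorticoid-responsive genes (median 0.40) and immediate early genes (0.33) lie farthest to the right, and mural cell markers (-0.34) farthest to the left.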

How the data were processed

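Per the labels' protocols, RNA from motor cortex was isolated with the RNeasy Mini Kit, and Nextera XT was used for the libraries of poly(A) RNA. The submitters' processing notes list the build GRCm38 and the tools featureCounts, STAR 2.7.7a and DESeq2. The deposited values are raw counts per gene symbol, whole numbers in 1 table of 24391 symbols, and 0 columns belonged to no sample. Which annotation and strand setting were used is not given in the sources used here, so reads from opposite strands cannot be told apart. Groups, cohort and sex came from the sample titles, and columns with no cohort mark were taken as cohort 1.

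Run and home cage TRAP libraries were compared with edgeR (4.0.16, R 4.3.3), by quasi-likelihood F tests with TMM scaling, the filter filterByExpr by condition, cohort as covariate and Benjamini-Hochberg adjustment over all genes tested, with calls at an adjusted p under 0.05. TRAP was compared with lysate in the 14 home cage libraries. Differences between cohorts and between fractions were tested as interactions. All 4 fits were also run on counts simulated from their own means and dispersions, with results not given here. Libraries were drawn independently, so that check cannot show effects of outlier libraries or of shared mice. DESeq2 (1.42.0) and limma-voom (3.58.1) were alternatives. CPM values were scaled with TMM factors within TRAP. Each mouse gave 1 library per fraction, so in fits within 1 fraction p-values measure the spread between mice. The fits of TRAP against lysate and of the fraction difference held both libraries of a mouse as if independent. A block of the mouse was an alternative setting for these.

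By title, each lysate library comes from the same mouse as a TRAP library. Their deviations from the group means correlated between -0.10 and 0.10 in home cage mice, over 0.1 in 1 of 7. The text names every called gene, the 25 genes of smallest p with a positive and the 15 with a negative fold with a mean log2 CPM over 1, up to 3 of smallest p per list, and always Arc, Cldn5, Cx3cr1, Egr1, Fos, Gfap, Mbp, Npas4, P2ry12, Rpl10a, Slc17a7 and Tmem119. Of these Gfap was at -0.01 ± 0.19 and Mbp at 0.23 ± 0.22 (log2 fold ± SE). Unnamed gene models are counted and not named, with 8430408G22Rik as the exception because it was called. The members and the 43 lists were chosen with earlier results of these data known.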

Additional observations from a re-analysis of the deposited data

Results flagged for a closer look

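In groups of 7 libraries, 9 of 108 groups tested (51 genes and 3 library measures, each in both conditions) had a highest library whose gap to the next exceeded Dixon's 95% critical value, where chance flags about 1 in 20 groups. In the run library Female2 of cohort 2 these were Cebpb at 562 CPM (next 274), Cyr61 at 17.8 CPM (next 9.08), Gadd45b at 17.8 CPM (next 7.52), Rcan1 at 195 CPM (next 129), Arc at 156 CPM (next 85.0) and Mbp at 1146 CPM (next 628). That is the library of 241382000 counts with a Cst3 share of 13.0% and a Y-linked level against its label, and the part of these in the values was not tested. In home cage mice they were Ddit4 at 30.7 CPM (next 14.3) and Gfap at 37.6 CPM (next 27.8), both in Female2 of cohort 1, and Cyr61 at 6.42 CPM (next 3.43) in Male1 of cohort 2.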

How the results depend on the processing

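The 7 calls became 5 with size factors of the RLE method, 9 with no filter on low counts, 8 with limma-voom, 39 with DESeq2, 6 with purity as a covariate, 5 with sex as a covariate, 30 with all 28 libraries in the fit, 0 without the cohort term, 0 in cohort 1 alone and 0 in cohort 2 alone. Of 2 alternatives chosen after seeing the data, a filter by the full design gave 6 calls and counts without Cst3, Rn45s and Lars2 gave 7. Leaving out 1 library gave 3 to 8 calls. With a replicate block of cohort, sex and number 3 genes were called, but the numbers do not pair the mice, since home cage and run libraries of 1 number correlated between -0.28 and 0.002 in their deviations and 0 of 7 correlated best with their own number. The replicate block of the mouse changed no call between the fractions. The cohort difference was called for 1 gene by DESeq2, and the fraction difference for 38 by DESeq2 and for 0 to 1 with 1 mouse left out. As given above, the DESeq2 fraction calls of smallest p had differences too large to be read as changes in level. Over all settings the log2 folds of the called genes ran from 0.80 (Nfkbia without the 2 run mice) to 2.24 (Ddit4). The share of cohort 1 genes that kept their sign in cohort 2 was 66% for 50 genes, 90% for 20 and 60% for 100. For 50 genes without the 2 run mice it was 90%. That of cohort 2 genes in cohort 1 was 46%, 45%, 49% and 60% in the same order. Without the 2 run mice no share over all genes was counted beside these. Uncalled genes near 0 changed sign: P2ry12 was at -0.032 with limma-voom, -0.039 with the replicate block, -0.20 in cohort 2 alone and -0.15 to 0.15 with 1 library left out, Cx3cr1 at 0.020 with purity as a covariate, Npas4 at -0.083 and Mbp at -0.0010 in cohort 1 alone, Gfap at 0.076 in cohort 2 alone, and Tmem119 at -0.0076 and Mbp at -0.032 without the 2 run mice. With 1 library left out Gfap ran from -0.17 to 0.10, Mbp from -0.031 to 0.41, Slc17a7 from -0.094 to 0.055 and Tmem119 from -0.00448 to 0.15. The cause of these shifts was not tested. Over all named genes and settings 1900 folds stayed on their side of the threshold, 65 lost and 50 gained a call and 29 changed sign.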
